A study of Mus musculus with 9 samples.

Results

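The 33 genes described here carry out or control the breakdown of fatty acids in mitochondria and peroxisomes and the making of ketone bodies. They were taken by gene symbol from a list of β-oxidation, ketogenesis and Ppara-related genes, by a rule that uses no measured value, though earlier results of these data were known when the list was drawn up. All 33 were found among the 45513 gene IDs of the count table, and all 33 passed the filter on low counts that left 12102 genes for testing. The RNA came from livers of C57BL/6 mice after 9 weeks. Of the 3 groups of 3 libraries, one had a normal diet and vehicle, another a high fat diet and vehicle, and the last a high fat diet and B-LGND2, a compound known here by its code name and presented in the series title as an estrogen receptor beta ligand. No genetic change is given for any group. The sources used here do not give the dose, the make-up of the diets, the sex of the animals or the hour of sampling.

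Hepatocytes take up fatty acids, couple them to coenzyme A, and move long chains into mitochondria through the carnitine shuttle. There, dehydrogenases, hydratases and thiolases shorten the chain step by step and pass electrons to the respiratory chain, while peroxisomes shorten chains that mitochondria handle poorly. PPARα, encoded by Ppara, is a nuclear receptor that activates many of these genes in liver during fasting and when fatty acids are plentiful.

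Total counts ran from 5778978 to 10322972 per library, and the hepatocyte markers, at 85376 to 127161 CPM summed over 11 genes, were abundant in all 9 libraries. CPM are counts per 1e+06 counts, on library sizes scaled by the trimmed mean of M-values (TMM). The groups also differed in other respects. Gene models of ribosomal RNA took 3.42% ± 0.299 of the normal diet libraries, 1.20% ± 0.275 of the high fat vehicle libraries and 5.51% ± 1.04 of the B-LGND2 libraries (mean ± SD of 3), with no overlap. The summed level of 14 macrophage markers was 407 to 657, 401 to 517 and 1273 to 1607 CPM in the same order, with none of the 14 at 0 in all libraries. Of these, 10 rose with B-LGND2 against high fat vehicle by the quasi-likelihood test of edgeR, with p adjusted after Benjamini and Hochberg. The 7 cholangiocyte markers summed to 37.4 to 50.4, 33.1 to 39.9 and 100.1 to 138.9 CPM, where Spp1 and Tff3 rose with B-LGND2 and Krt19 and Sox9 were not called. The 10 endothelial markers summed to 242 to 290, 226 to 281 and 333 to 399 CPM, and 1 of them, Kdr, rose. The 11 hepatocyte markers had a median log2 fold change of 0.02 in that contrast, from -0.70 for Cps1 to 1.40 for Apoa1, the only one called. In bulk liver, fewer cells of a type and less RNA per cell cannot be told apart. The part of these shifts in the results below was not tested, other than by a fit with the ribosomal RNA share as a covariate, in which no member was called and the median of the members in the ligand comparison was -0.55.

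Compared per kilobase of exon, Acaa2, the thiolase of the last step of mitochondrial β-oxidation, stood highest. Exon length here is the union of all annotated exons of a gene. For Echs1 it is 8286 bases where the longest coding transcript has 1557, while for Acaa2 both are 1516. The order of the members therefore depends in part on the annotation. Acaa2 had 742 ± 165 CPM per kb in the normal diet group, 640 ± 11.2 in the high fat vehicle group and 656 ± 156 with B-LGND2 (mean ± SD, n = 3). On normal diet it was followed by Slc27a2 at 234 ± 42.7 and Etfb at 202 ± 65.4, whose ranges overlapped. The next members, Creb3l3, Acaa1b and Cpt2, at 147 ± 18.95, 147 ± 26.9 and 140 ± 6.25, did not differ beyond their spread. The lowest were Acot2, Fgf21, Hadhb and Pdk4, which had 1.33 ± 0.729, 0.932 ± 0.656, 0.598 ± 0.177 and 0.542 ± 0.156 CPM per kb on normal diet. A near-identical pseudogene, described below, had far more counts than Hadhb, so the rank of Hadhb is uncertain.

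**Figure D1:**
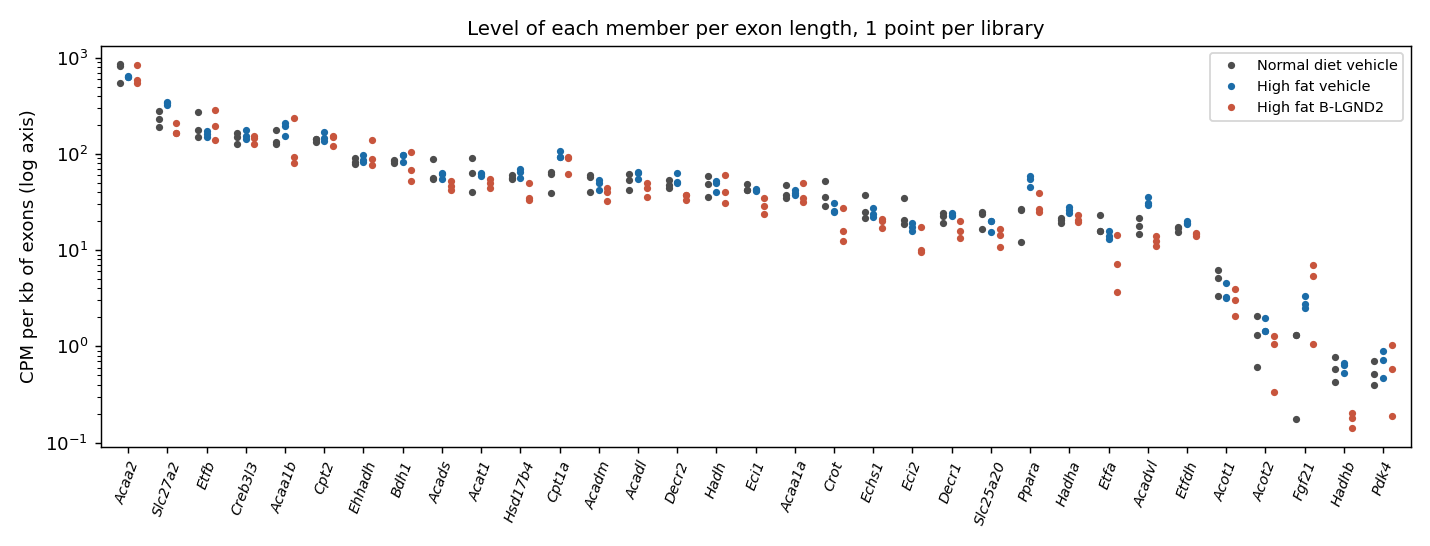
Level of each of the 33 genes in CPM per kb of all annotated exons (log axis), with 1 point per library and genes ordered by their mean on normal diet. Acaa2 stood at the top in all 3 groups, and Acot1, Acot2, Fgf21, Hadhb and Pdk4 had the lowest means, with Etfa reaching down among them in 1 B-LGND2 library.

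The first comparison, between the vehicle groups, asks how the high fat diet changed these genes. Ppara and Acadvl rose, and none of the 33 fell by the test. When a library was left out, 0 to 3 members were called, and 0 in the fit of the vehicle groups alone. In this contrast 2.99% of all genes tested were called, 1.5% higher and 1.49% lower, and 22.4% had an unadjusted p under 0.05, against 5 of the 33. The median log2 fold change of the 33 was 0.09, beside 0.005 for all genes, and 20 of the 33 lay above 0. Over the other settings and left-out libraries the median ran from 0.004, without normal diet replicate 2, to 0.27, with the ribosomal RNA covariate, and 8 to 16 members lay below 0. Groups did not overlap for 7 members that were higher and 1 that was lower, where 15.4% and 14.8% of all genes tested did the same (30.1% in either direction).

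The second comparison, between the high fat groups, asks what B-LGND2 changed. Acadvl, Hadhb and Slc27a2 fell, and none of the 33 rose. Without any one of the high fat vehicle libraries, Acadvl alone was called. The summed count of Hadhb and a near-identical pseudogene, most of it from the pseudogene, was not lower. Among all genes 5.63% were called, 3.07% higher and 2.56% lower, and 23.7% had an unadjusted p under 0.05, against 10 of the 33. The log2 fold change lay below 0 for 29 of the 33, beside 50.3% of all genes, and its median was -0.35, beside -0.003. For 15 members all B-LGND2 libraries were lower than all high fat vehicle libraries, and for none were they all higher. The same held for 17.2% and 16.4% of all genes (33.6% in either direction). Over all other settings and left-out libraries that were run, 23 to 31 members lay below 0 and the median ran from -0.55 to -0.30.

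The third comparison sets the B-LGND2 group against the normal diet group, and so shares libraries with both others, which in turn share the high fat vehicle libraries. Hadhb fell, and no other member passed the test. The sum with the pseudogene was not called here either, and 0 to 3 members were called when a library was left out. Among all genes 2.93% were called, 1.59% higher and 1.33% lower, and 19.4% had an unadjusted p under 0.05, against 14 of the 33. The median of the 33 was -0.37, beside -0.006 for all genes, and 25 lay below 0, beside 50.5% of all genes. Over the other settings and left-out libraries the median ran from -0.43 to -0.16, the latter without normal diet replicate 3, and 22 to 29 members lay below 0. B-LGND2 libraries were all lower than all normal diet libraries for 12 members and all higher for 0, beside 10% and 10.5% of all genes tested (20.5% in either direction).

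**Figure D2:**
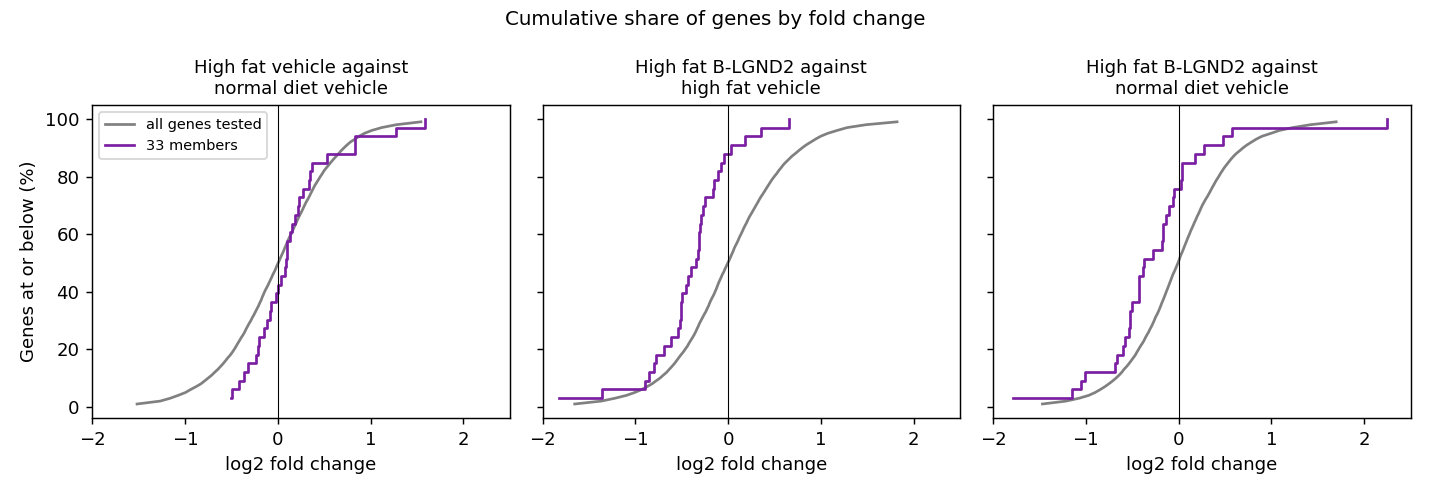
Cumulative share (%) of genes at or below a log2 fold change, for the 33 members and for all 12102 genes tested, in each of the 3 comparisons. In the comparison of B-LGND2 with vehicle on high fat diet the members lay to the left, with a median of -0.35 against -0.003, while in the diet comparison their median was 0.09 against 0.005.

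Each library can be set against the normal diet mean. The median log2 ratio of the 33 members to that mean was -0.11, -0.02 and 0.12 in the normal diet libraries themselves, and 0.08, 0.06 and -0.01 in the high fat vehicle libraries. In the B-LGND2 libraries it was -0.23, -0.38 and -0.36, below all 6 others. The 33 genes together made up 0.663%, 0.717% and 0.751% of the TMM-scaled total in the normal diet group, 0.797%, 0.816% and 0.752% in the high fat vehicle group, and 0.712%, 0.588% and 0.598% in the B-LGND2 group. The high fat vehicle libraries were highest, 1 of them barely above normal diet replicate 3, and B-LGND2 replicate 1 lay within the normal diet range. These positions depended on the scaling. As a share of unscaled counts the 33 made up 0.641% to 0.742%, 0.819% to 0.896% and 0.591% to 0.622% in the same order of groups, without overlap. Both shares are weighted towards the most abundant members, above all Slc27a2 and Acaa2.

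Among the 4 regulators, Ppara was the one that changed with diet. Ppara (ENSMUSG00000022383, chr15:85734983-85802819, GRCm38) had 103, 101 and 47.2 CPM in the normal diet group, 212, 224 and 174 in the high fat vehicle group, and 96.3, 102 and 152 with B-LGND2. All 3 high fat vehicle libraries were higher than the other 6. Ppara was 2.43-fold higher on high fat than on normal diet (log2 fold change 1.28, SE 0.28, edgeR adjusted p = 0.029). That call was lost without normal diet replicate 2 or 3 and without any one of the high fat vehicle libraries, with an adjusted p of 0.0602 to 0.108, and when only the vehicle groups were fitted (adjusted p = 0.0563). With B-LGND2 it was lower than in high fat vehicle livers without overlap, but missed the threshold (log2 fold change -0.80, SE 0.28, edgeR adjusted p = 0.097). It passed without normal diet replicate 3 (adjusted p = 0.0219), without the filter (0.02) and with only the 2 high fat groups fitted (0.035). Against normal diet, B-LGND2 livers overlapped (log2 fold change 0.48, adjusted p = 0.358).

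The other regulators did not pass the test in any comparison. Creb3l3, a liver transcription factor of the endoplasmic reticulum that works with PPARα, had 451, 383 and 496 CPM in the normal diet group, 530, 427 and 467 in the high fat vehicle group and 461, 438 and 381 with B-LGND2, so that the groups overlapped. Fgf21, encoding a fasting hormone and a classical PPARα target, was near the detection limit, with 8, 1 and 9 counts in the normal diet group, 16, 16 and 23 in the high fat vehicle group, and 58, 35 and 6 with B-LGND2. The B-LGND2 group held both the highest and one of the lower values. All high fat vehicle libraries lay above the normal diet ones for Fgf21 (log2 fold change 1.59, SE 0.66, edgeR adjusted p = 0.169). Its log2 fold change between B-LGND2 and normal diet was 2.25 (SE 0.64, adjusted p = 0.0686), which passed without B-LGND2 replicate 3 (adjusted p = 0.024), without the filter (0.00235) and by DESeq2 (0.0204). Pdk4, a kinase that restrains pyruvate oxidation when fat is burned, had 9, 11 and 18 counts, then 19, 11 and 18, and then 31, 14 and 4 in the same order of groups, with full overlap and log2 fold changes of 0.34 for diet and -0.16 for B-LGND2.

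In the carnitine shuttle, Cpt1a encodes the outer membrane enzyme that commits long chains to entry into mitochondria. Cpt1a (chr19:3322334-3385733) had 498, 467 and 299 CPM in the normal diet group, 714, 825 and 709 in the high fat vehicle group, and 700, 479 and 711 with B-LGND2. High fat vehicle libraries lay above all normal diet ones, a log2 fold change of 0.83 (SE 0.24) that missed the threshold (edgeR adjusted p = 0.0668). It passed without scaling beyond the library total (adjusted p = 0.0389), without the filter (0.0163), by DESeq2 (0.0184) and without normal diet replicate 1 (0.0216). Between B-LGND2 and high fat vehicle the groups overlapped (log2 fold change -0.25, adjusted p = 0.548). Cpt2, the inner membrane partner, and Slc25a20, which carries acylcarnitines across that membrane, had log2 fold changes of 0.10 and -0.23 for diet and -0.07 and -0.43 for B-LGND2 against high fat vehicle, none called.

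**Figure D3:**
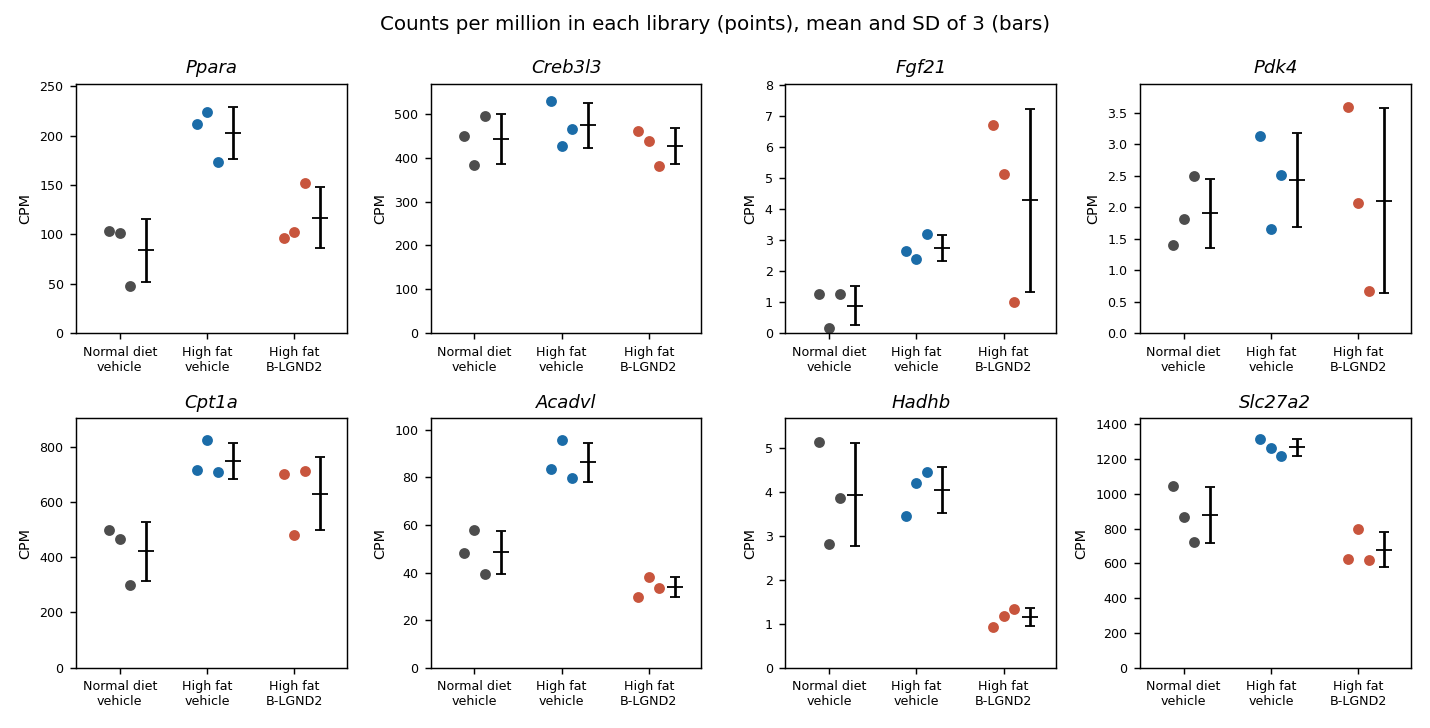
CPM in each library (points) with mean and SD of 3 (bars) for the 4 regulators, Cpt1a and the 3 members that fell with B-LGND2. The means of Acadvl and Slc27a2 were highest in high fat vehicle livers and lowest with B-LGND2, and Hadhb stood at about 1 CPM in the 3 B-LGND2 libraries.

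Among the 9 enzymes of the mitochondrial spiral, Acadvl, whose product VLCAD starts it for long chains, was called in both the diet and the ligand comparison. Acadvl (ENSMUSG00000018574, chr11:70010183-70015411) had 48.2, 57.7 and 39.6 CPM in the normal diet group, 83.6, 95.5 and 79.9 in the high fat vehicle group, and 29.8, 38.1 and 33.3 with B-LGND2. The 3 groups did not overlap. Acadvl rose 1.78-fold with high fat diet (log2 fold change 0.83, SE 0.22, edgeR adjusted p = 0.0472). It was 2.56-fold lower with B-LGND2 than with vehicle on that diet (log2 fold change -1.36, SE 0.22, adjusted p = 0.00386). The B-LGND2 difference stayed called whichever of the 9 libraries was left out (adjusted p at most 0.0293). The diet difference stayed called in 1 of 9, the one without normal diet replicate 1, with an adjusted p of 0.0522 to 0.206 in the other 8. It was also lost when only the vehicle groups were fitted (adjusted p = 0.0668). Against normal diet, Acadvl was lower with B-LGND2 in 3 of 3 libraries, which missed the threshold (log2 fold change -0.52, adjusted p = 0.199).

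On the opposite strand, Dvl2, a Wnt signalling gene, shares 1151 exonic bases with Acadvl, 42.85% of the exonic length of Acadvl. The sources used here do not give the strand setting of the counting, so the reads of this stretch cannot be assigned with certainty. Dvl2 had 26.7, 43.0 and 45.4 CPM in the normal diet group, 34.5, 28.0 and 29.1 in the high fat vehicle group and 32.4, 43.4 and 38.3 with B-LGND2, with log2 fold changes of -0.33 and 0.32 (edgeR adjusted p = 0.446 and 0.445). Both lay opposite in sign to those of Acadvl, and neither was called.

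Hadhb encodes the β subunit of the trifunctional protein, which with Hadha performs the remaining steps on long chains, and its counts need the most care. Hadhb (ENSMUSG00000059447, chr5:30155248-30184593) had 33, 17 and 28 counts in the normal diet group, 21, 28 and 32 in the high fat vehicle group, and 8, 8 and 8 with B-LGND2. That is 5.15, 2.81 and 3.87 CPM, then 3.46, 4.21 and 4.46, and then 0.927, 1.18 and 1.33, so that B-LGND2 libraries lay below all others. With B-LGND2 it was 3.53-fold lower than in the high fat vehicle group (log2 fold change -1.82, SE 0.42, edgeR adjusted p = 0.0232) and 3.44-fold lower than in normal diet livers (log2 fold change -1.79, SE 0.42, adjusted p = 0.0315). The first call was lost without any one high fat vehicle library and without B-LGND2 replicate 1 (adjusted p = 0.0631 to 0.0975). The call against normal diet was lost in all 9 fits that left out a library (adjusted p = 0.0527 to 0.105). Hadha, the partner subunit, had a mean of 178, 229 and 184 CPM in the 3 groups, with log2 fold changes of 0.36 for diet and -0.32 for B-LGND2, without overlap but not called.

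A processed pseudogene on chromosome 2, Gm13910, matches 1428 bases of the Hadhb transcript, the whole coding sequence included, and differs at 3 of them (99.79% identity). The 3 places are shown because they are the only bases in that stretch that can tell a read of one from a read of the other. Each pair of lines gives 41 bases, 5′ to 3′, of the GENCODE transcripts, with the differing base in capitals. Counted from 1 at the 5′ end of the Hadhb transcript, the changes from Hadhb to Gm13910 are G320A, A512G and G862A.
Hadhb: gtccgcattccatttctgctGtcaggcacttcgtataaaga
Gm13910: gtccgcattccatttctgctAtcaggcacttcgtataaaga
Hadhb: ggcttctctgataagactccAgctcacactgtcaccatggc
Gm13910: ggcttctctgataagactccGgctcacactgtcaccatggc
Hadhb: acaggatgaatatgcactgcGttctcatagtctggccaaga
Gm13910: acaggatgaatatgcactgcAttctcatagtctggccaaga

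Gm13910 had 159, 248 and 273 CPM in the normal diet group, 236, 236 and 235 in the high fat vehicle group, and 385, 261 and 298 with B-LGND2. Its level was far above that of Hadhb itself in every library. In B-LGND2 livers it was higher than in high fat vehicle livers without overlap, which missed the threshold (log2 fold change 0.42, edgeR adjusted p = 0.283). With the counts of the pair summed, an alternative chosen after seeing the data, Hadhb with Gm13910 had a log2 fold change of 0.06 for diet, 0.40 for B-LGND2 against high fat vehicle (adjusted p = 0.301) and 0.46 against normal diet (adjusted p = 0.289). The Hadhb count was lower with B-LGND2 and the summed count was not. Gm13910 made up most of the sum in every library, so the sum mainly followed Gm13910. The sources used here do not say how reads that match both were assigned. Another processed pseudogene of Hadhb, Gm9108, was not used here.

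**Figure D4:**
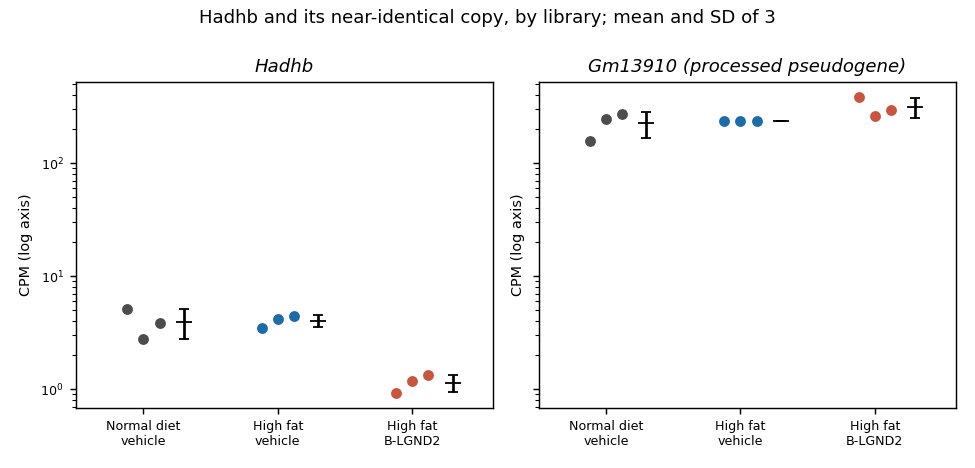
CPM of Hadhb and of its near-identical processed pseudogene Gm13910 in each library (points, log axis), with mean and SD of 3 (bars). Hadhb lay between 0.927 and 5.15 CPM and Gm13910 between 159 and 385, and the B-LGND2 group had the lowest mean of Hadhb and the highest mean of Gm13910.

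None of the other 6 chain-shortening enzymes was called in any comparison. They were Acadl, Acadm and Acads, which take over as chains get shorter, Echs1, the short chain hydratase, Hadh, the medium and short chain hydroxyacyl-CoA dehydrogenase, and Acaa2. Their log2 fold changes for B-LGND2 against high fat vehicle were -0.49, -0.31, -0.35, -0.32, -0.11 and 0.04, and for diet 0.22, -0.12, -0.15, -0.20, -0.02 and -0.21. Acadl, Acads and Echs1 were lower in all B-LGND2 libraries than in all high fat vehicle libraries.

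The 4 auxiliary enzymes prepare unsaturated chains for the spiral by moving or reducing double bonds, in mitochondria (Eci1, Decr1) and peroxisomes (Decr2, and Eci2, which is found in both). None passed the test, and all 4 had log2 fold changes below 0 with B-LGND2 against high fat vehicle. Decr2 had 142, 118 and 125 CPM in the normal diet group, 137, 169 and 133 in the high fat vehicle group, and 88.7, 98.3 and 99.9 with B-LGND2, which put the B-LGND2 libraries below all others. Its log2 fold change between the high fat groups was -0.61 (SE 0.20, edgeR adjusted p = 0.0788), and it passed without scaling, by DESeq2, with only the high fat groups fitted, with length and GC offsets, and without normal diet replicate 3. For Eci1, Decr1 and Eci2 it was -0.52, -0.51 and -0.51, and the first 2 of these did not overlap. Against normal diet, Eci2 stood at -1.004 (SE 0.28, adjusted p = 0.0612), with 52.6, 95.8 and 56.1 CPM against 103, 114 and 193. It passed without the filter, by DESeq2, and without normal diet replicate 1 or B-LGND2 replicate 2 (adjusted p = 0.0278 and 0.0359).

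Electrons from the acyl-CoA dehydrogenases pass to the electron transfer flavoprotein, whose subunits are Etfa and Etfb, and on to its dehydrogenase Etfdh. None of the 3 passed the test. Etfa had 42.9, 29.1 and 28.9 CPM in the normal diet group, 25.7, 28.9 and 23.7 in the high fat vehicle group, and 6.72, 13.2 and 26.1 with B-LGND2, where the libraries spread widely. Its log2 fold change was -0.78 between the high fat groups (SE 0.36, edgeR adjusted p = 0.201) and -1.14 against normal diet (SE 0.36, adjusted p = 0.0987). Without B-LGND2 replicate 3, the highest of its group, Etfa was called lower in both (-1.40 and -1.76, adjusted p = 0.0358 and 0.0181). It was also called against normal diet without the filter and by DESeq2. Etfb stood at 0.35 and 0.03 in the same contrasts, opposite in sign to Etfa, while for diet they had -0.37 (Etfa) and -0.32 (Etfb). Etfdh, at -0.40 and -0.17, was lower in all B-LGND2 libraries than in all high fat vehicle and normal diet libraries.

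Both flavoprotein subunits share sequence with other gene models. Etfa matches the processed pseudogene Gm15289 over 243 bases at up to 95.08% identity, and Gm15289 fell with high fat diet (log2 fold change -1.26, edgeR adjusted p = 0.0206). The summed counts of Etfa and Gm15289 had -0.82 for diet (edgeR adjusted p = 0.08) and -0.17 for B-LGND2 on high fat diet (adjusted p = 0.732). Against normal diet the sum had -0.99 (adjusted p = 0.0469). The match covers 17.5% of the Etfa transcript. Gm15289 had more counts than Etfa in all normal diet and B-LGND2 libraries, so the sum is not a value of Etfa alone. Etfb shares 53.01% of its exonic bases with Gm45233 on the same strand, a model not used here.

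Of the 6 peroxisomal members, Slc27a2 fell with B-LGND2. It encodes a very long chain acyl-CoA synthetase that also takes up fatty acids. Slc27a2 (ENSMUSG00000027359, chr2:126552407-126588243) had 1044, 868 and 724 CPM in the normal diet group, 1316, 1266 and 1219 in the high fat vehicle group, and 624, 796 and 618 with B-LGND2. High fat vehicle libraries lay above all others, and the B-LGND2 and normal diet libraries overlapped. Slc27a2 was 1.87-fold lower with B-LGND2 than with vehicle on high fat diet (log2 fold change -0.90, SE 0.22, edgeR adjusted p = 0.0258). That call was lost without any one high fat vehicle library and without B-LGND2 replicate 1 or 3 (adjusted p = 0.0695 to 0.105). For diet the log2 fold change was 0.53 (SE 0.21, adjusted p = 0.159), and against normal diet -0.37 (adjusted p = 0.352).

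A long noncoding RNA on the opposite strand, Gm26697, shares 419 exonic bases with Slc27a2, 11.16% of its exonic length. Gm26697 had 3.28, 2.48 and 1.52 CPM in the normal diet group, 9.07, 13.7 and 6.41 in the high fat vehicle group, and 3.01, 2.501 and 6.66 with B-LGND2. It rose with high fat diet (log2 fold change 2.00, SE 0.44, edgeR adjusted p = 0.0289) and had -1.28 for B-LGND2 (adjusted p = 0.0792). Its levels were far below those of Slc27a2, and reads of the shared stretch cannot be told apart without strand.

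The other peroxisomal members did not pass the test. Hsd17b4, the D-bifunctional protein, had 208, 186 and 190 CPM in the normal diet group, 222, 236 and 191 in the high fat vehicle group, and 113, 120 and 170 with B-LGND2. All B-LGND2 libraries were below all others (log2 fold change -0.69 on high fat diet, SE 0.21, edgeR adjusted p = 0.0666, and -0.54 against normal diet, adjusted p = 0.18). The difference between the high fat groups passed without scaling, by DESeq2, with only these groups fitted, with length and GC offsets, and without normal diet replicate 1 or 3 or B-LGND2 replicate 3 (adjusted p = 0.0359 to 0.0457). Crot, which hands shortened chains to carnitine, had 193, 157 and 283 CPM, then 170, 136 and 140, and then 87.2, 68.7 and 150 in the same order of groups. Its log2 fold change was -0.54 on high fat diet (adjusted p = 0.256) and -1.05 against normal diet (SE 0.28, adjusted p = 0.0568). The latter passed without the filter, by DESeq2, by limma-voom, with a replicate block, and without normal diet replicate 1 or B-LGND2 replicate 3 (adjusted p = 0.0446 and 0.0225). Ehhadh, the L-bifunctional protein, stood at 0.18 between the high fat groups, apart in sign from Hsd17b4. Its groups overlapped, and only B-LGND2 replicate 2 lay above all high fat vehicle libraries. The thiolases Acaa1a and Acaa1b had -0.05 and -0.45. With B-LGND2, Acaa1b had 465, 157 and 181 CPM, and without the high replicate 1 it was called lower than in the high fat vehicle group (log2 fold change -1.09, SE 0.23, edgeR adjusted p = 0.0451).

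Acaa1a and Acaa1b share 81% and 84.5% of their transcripts at 95% identity or more, so their counts are uncertain one by one. Summed, they had log2 fold changes of 0.23 for diet and -0.31 for B-LGND2 on high fat diet. The thioesterases Acot1 (cytosolic) and Acot2 (mitochondrial), which release free fatty acids from coenzyme A, share 56.1% and 58% in the same way. Their own log2 fold changes for B-LGND2 were -0.27 and -0.85, and that of their sum was -0.37. None of these, nor either sum in any comparison, was called. The ketone body genes Bdh1, which converts acetoacetate to β-hydroxybutyrate, and Acat1, which condenses acetyl-CoA, had 0.13 and -0.07 for diet and -0.29 and -0.31 for B-LGND2, also not called.

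**Figure D5:**
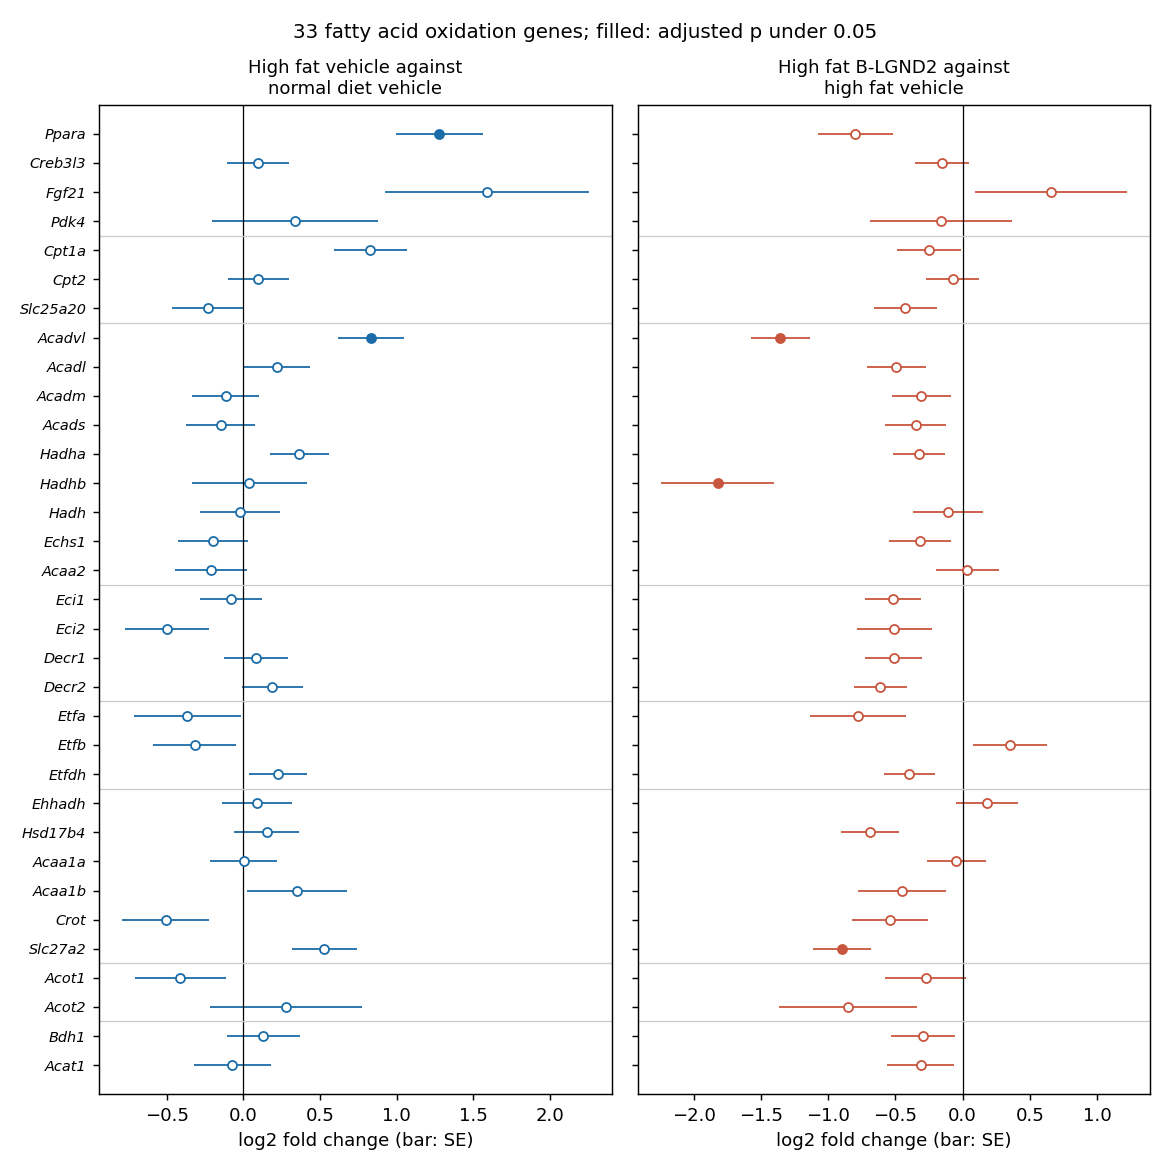
Log2 fold change with SE (bars) of each of the 33 genes for diet (left) and for B-LGND2 on high fat diet (right), grouped by role, with filled points at an adjusted p under 0.05. Ppara and Acadvl are filled above 0 on the left, and Acadvl, Hadhb and Slc27a2 are filled below 0 on the right, where 29 of 33 points lie below 0.

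The share of ribosomal RNA moved with the groups, and so did a relation of relative expression to exon length. For each library, the deviation of each gene from its mean over all libraries was correlated with exon length across genes. This Spearman correlation was 0.285 to 0.352 in the high fat vehicle libraries and -0.453 to 0.222 in the others. B-LGND2 replicate 1 stood apart in the same correlation with GC content (0.503, at most 0.0814 elsewhere), and normal diet replicate 1 in mitochondrially encoded counts (12.7%, 3.69% to 6.12% elsewhere). With the ribosomal RNA share as a covariate, no member was called in any comparison, and 1, 2 and 12 genes were called among all tested. In that fit the median of the 33 for B-LGND2 on high fat diet was -0.55, with 23 below 0. There Acadvl had -1.70, Slc27a2 -1.31 and Hadhb -0.33, while Ppara stood at 0.19, opposite in sign to its value without the covariate. The share separates the 3 groups without overlap, so that it and the groups cannot be told apart in such a fit. With offsets for exon length and GC content, Acadvl, Hadhb and Slc27a2 were called lower with B-LGND2 on high fat diet, together with Decr2, Eci1 and Hsd17b4.

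Outside the 33, 98 of 104 other genes of fatty acid oxidation and peroxisomes were tested. With high fat diet 3 rose and 2 fell, and their median log2 fold change was 0.02. Among all genes tested, 1.5% rose and 1.49% fell, with a median of 0.005. Those that rose were Esrrg, an orphan nuclear receptor of oxidative metabolism (log2 fold change 2.16, edgeR adjusted p = 0.0206), Scp2, which encodes a peroxisomal thiolase and sterol carrier (1.00, 0.0334), and Acsm3, a medium chain acyl-CoA synthetase (0.97, 0.0369). The ω-hydroxylase genes Cyp4a12a and Cyp4a10, the latter a PPARα target, fell by 2.53 and 1.89 on the log2 scale. The 2 are members of a family of near copies, so their counts are uncertain one by one.

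With B-LGND2 against high fat vehicle, 1 of these 98 genes rose and 6 fell, with a median of -0.24. Among all genes tested, 3.07% rose and 2.56% fell, with a median of -0.003. Ucp2, a mitochondrial carrier that macrophages also express, rose (log2 fold change 1.21, edgeR adjusted p = 0.0182). Those that fell were Esrrg (-2.57), Acsm3 (-1.60), Scp2 (-1.19), Cat, the peroxisomal catalase (-1.18), Acot12, an acetyl-CoA hydrolase (-0.98), and Acsl1, a long chain acyl-CoA synthetase (-0.91), with an adjusted p of 0.00209 to 0.0487. Scp2 went from 302 CPM on normal diet to 605 in the high fat vehicle group and 265 with B-LGND2. Against normal diet, Ucp2 rose and 6 fell with B-LGND2: Cyp4a10 (-2.67), Cyp4a12a (-2.62), Pparg (-1.60), Cat (-0.98), Pex3 (-0.96) and Acsl5 (-0.92). In that contrast 1.59% of all genes tested rose and 1.33% fell.

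RefSeq promoters (250 bases before to 50 after the start, GRCm38.p6) were found for 29 of the 33 members. The nuclear receptor hexamer AGGTCA, on either strand, was in 6 of their 31 promoters (19.4%), those of Acadm, Acadvl, Cpt1a, Creb3l3, Echs1 and Slc27a2, and in 16.3% of all 32851 promoters. A direct repeat of that hexamer with 1 base between, the form that PPARα binds with its partner RXR, was in none without mismatch (0.0396% of all), and in 4 with up to 2 mismatches (12.9%, against 3.86% of all). Those 4 were Creb3l3, Echs1, Etfa and Slc25a20. The estrogen response element, GGTCA and TGACC with 3 bases between, was in none (0.07% of all), nor was the cyclic AMP response element TGACGTCA (1.79% of all). A match only describes the letters in this window, and the hexamer is part of the direct repeat. The 250 bases before the start are shown for Acadvl (chr11:70015429-70015678, minus strand), the member called in both the diet and the ligand comparison, and for Slc27a2 (chr2:126552774-126553023, plus strand), chosen after its values were seen. For Acadvl the stretch just after this RefSeq start was not within any GENCODE transcript of the gene. The GENCODE gene of Acadvl begins slightly further downstream, at 70015411. For Slc27a2 the stretch was within a transcript. The GENCODE gene of Slc27a2 begins at 126552407, so the bases shown lie within the annotated gene. The promoters of Ppara and Hadhb, which were also called in a comparison, held none of these motifs and are not shown. The hexamer, in Slc27a2 on the opposite strand, is in capitals.
Acadvl: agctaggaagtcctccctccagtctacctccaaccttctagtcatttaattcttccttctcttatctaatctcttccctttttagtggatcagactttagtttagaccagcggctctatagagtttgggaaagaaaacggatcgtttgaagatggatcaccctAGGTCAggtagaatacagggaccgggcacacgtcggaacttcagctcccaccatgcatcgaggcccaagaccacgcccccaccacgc
Slc27a2: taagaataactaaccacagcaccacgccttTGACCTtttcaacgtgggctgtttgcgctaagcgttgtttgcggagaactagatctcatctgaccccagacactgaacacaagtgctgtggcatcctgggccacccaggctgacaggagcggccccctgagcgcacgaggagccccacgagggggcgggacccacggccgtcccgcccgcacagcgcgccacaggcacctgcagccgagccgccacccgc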

How the data were processed

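Poly(A)-enriched liver RNA was made into barcoded Ion Torrent libraries, amplified and sequenced on a Proton instrument, per the labels' protocols. The submitters' processing notes name HTSeq 0.6.1p1, TopHat2 2.0.13 with Bowtie2 2.2.4, DESeq2 1.6.3 and SAMtools 0.1.19, on build GRCm38.p3. They do not give the annotation release, the strand setting or the mode of read assignment. The authors deposited whole-number read counts per gene for the 9 libraries, without normalization. Libraries carry no molecular identifiers, so counts are not molecules.

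Symbols, coordinates and union exon lengths came from GENCODE M 21, matched on gene ID (44671 with a symbol, 842 without). In R 4.3.3 with edgeR 4.0.16, filterByExpr (minimum count 10) kept 12102 genes. The 9 libraries were fitted together in a robust quasi-likelihood model with TMM scaling and the group as its only term (6 residual degrees of freedom). Two-sided p-values were adjusted by Benjamini-Hochberg over all genes tested in a contrast, at 0.05; an SE is the fold change divided by the root of F. Library sizes were first taken before the filter and then, after results were seen, as totals of the kept genes; 2, 3 and 1 members were called either way. The labels name no batch and no separate cultures or litters, so p-values reflect only how far these samples spread, which may be technical. An exact permutation test of 3 against 3 cannot go below 0.1, so none was run. The model was tested on simulated data.

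The members and gene lists were chosen with earlier results of these data known. By rule, values per library were given for the 4 regulators, Cpt1a and each member called for diet or ligand, and up to 6 other pathway genes per contrast were named by smallest p. The per-library values of Decr2, Eci2, Etfa, Hsd17b4, Crot and Acaa1b, the partner genes, Acsl1, Pex3 and the printed Hadhb stretches were chosen after their values were seen. Near-identical copies were found with BLAST 2.17.0 (95% identity over 100 bases). Alternatives were DESeq2 1.42.0 size factors and Wald test, no scaling, a filter of 50 counts in 3 libraries or none, limma-voom (limma 3.58.1), non-robust dispersions, only the 2 groups compared, a replicate block, length and GC offsets, ribosomal RNA share as covariate, summed copies, and each library left out.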

Additional observations from a re-analysis of the deposited data

How the results depend on the processing

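The number of members called, 2 for diet, 3 for B-LGND2 on high fat diet and 1 for B-LGND2 against normal diet, depended on the processing. For diet it was 0 with only the 2 groups compared and 0 with the ribosomal RNA share as covariate, and it ran from 0 to 3 when a library was left out. For B-LGND2 on high fat diet it was 5 without scaling, 5 by DESeq2's Wald test, 6 with only the 2 groups compared, 6 with length and GC offsets and 0 with the ribosomal RNA share, and from 1 (without any one high fat vehicle library) to 6 with a library left out. For B-LGND2 against normal diet it was 5 without the filter, 5 by DESeq2, 0 with the stricter filter, 0 with only the 2 groups compared, 0 with offsets and 0 with the ribosomal RNA share, and from 0 to 3 with a library left out. The cause of these moves was not tested. Same-numbered libraries did not pair: of 9 such pairs 1 had a correlation of deviations over 0.1 (range -0.20 to 0.13), and 3 of 9 libraries correlated best with their own number. With a replicate block 1 member (Ppara) was called for diet, 3 for B-LGND2 on high fat diet and 1 (Crot) against normal diet, beside 203, 492 and 253 of all genes against 362, 681 and 354 without the block. The summed count of Hadhb and Gm13910, most of it from Gm13910, had 0.40 on high fat diet and 0.46 against normal diet. Gm13910 alone had 0.42 and 0.48, so the sum is not a value of Hadhb alone. Without scaling the median of all genes moved to 0.17 for diet and -0.18 for B-LGND2 on high fat diet, where 31.1% of calls were higher, and 72.6% of the diet calls. Among values of named members under alternatives, 462 kept their side of the threshold, 44 fell short of it and 10 newly passed it. Another 2 reversed in sign where a fit was called. A reversal with no call in either fit counts among the 462, as for Ppara in the ligand comparison with the ribosomal RNA covariate. The 462 include values called in neither fit, so they do not measure how well the calls held. With 1 library dropped at a time, the ligand call of Acadvl held in 9 of 9 refits. Those of Hadhb and Slc27a2 held in 5 and 4 of 9. The diet calls of Ppara and Acadvl held in 4 and 1 of 9, and that of Hadhb against normal diet in 0 of 9. Low counts limit Hadhb, Fgf21 and Pdk4.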
